A study of Mus musculus with 34 samples.

Results

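The 10 genes described here are Trp53, which encodes the transcription factor p53, and 9 genes that p53 is known to switch on: Mdm2, Bax, Bbc3, Pmaip1, Tnfrsf10b, Ccng1, Phlda3, Zmat3 and Trp53inp1. They were taken by name from the gene column of the array design, with every probe kept in view. The set holds 17 of the 41174 probes on the array, and 16 of these were among the 31544 probes bright enough to test. Each of the 10 genes had at least 1 such probe, out of 21966 genes measured.

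The arrays compared mouse livers and liver tumors, 34 samples in 10 groups, each hybridised in Cy3 against a pool of liver RNA from C57BL/6 mice of both sexes in Cy5. Doxycycline turned the transgenes off. Myc tumors (7 samples), tumors of mice with both TGFα and Myc (TGFα/Myc, 3 samples) and TGFα tumors (3 samples) were end-stage tumors from mice with 0 weeks on doxycycline. For each transgene there were livers after 4 weeks with the transgene off (3 samples) and after 12 weeks (3 samples). Control livers (3 samples) carried no transgene and had 0 weeks on doxycycline. The labels give no promoter for the transgenes, no age and no strain for the sampled mice. They call the samples biological replicates but do not tie them to separate animals, so the p-values below measure the spread between these samples. The main tests treated the arrays as independent, although arrays on the same slide had a within-slide correlation of 0.444. In whole tissue, fewer cells of a type and less RNA per cell cannot be told apart.

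p53 is made continuously and destroyed quickly, because the ubiquitin ligase Mdm2, itself a p53 target, marks it for degradation. Damaged DNA or an overactive oncogene such as Myc stabilises the protein, so p53 activity is often read from its target genes rather than from Trp53 mRNA. The targets arrest the cell cycle, trigger death through the mitochondria or death receptors, dampen growth signals and feed back on p53.

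RefSeq promoters of the GRCm38.p6 build, running from 250 bases before to 50 after the annotated start, were matched to 6 of the 10 genes, with 8 promoters in all because Bbc3 had 3. The 5 printed here, 5′ to 3′, belong to p53 itself, its regulator and 3 genes whose levels are described below. Capitals mark matches to the p53 decamer, the 10-base unit of a p53 response element, or to the E-box CACGTG that Myc proteins bind.
Trp53, chr11:69580109-69580408, plus strand: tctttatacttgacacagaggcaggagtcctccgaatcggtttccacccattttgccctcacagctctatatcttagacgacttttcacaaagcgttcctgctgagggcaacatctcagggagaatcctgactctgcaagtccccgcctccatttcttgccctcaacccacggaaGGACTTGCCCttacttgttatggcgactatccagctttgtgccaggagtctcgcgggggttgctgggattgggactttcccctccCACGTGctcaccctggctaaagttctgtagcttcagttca
Mdm2, chr10:117710709-117711008, minus strand: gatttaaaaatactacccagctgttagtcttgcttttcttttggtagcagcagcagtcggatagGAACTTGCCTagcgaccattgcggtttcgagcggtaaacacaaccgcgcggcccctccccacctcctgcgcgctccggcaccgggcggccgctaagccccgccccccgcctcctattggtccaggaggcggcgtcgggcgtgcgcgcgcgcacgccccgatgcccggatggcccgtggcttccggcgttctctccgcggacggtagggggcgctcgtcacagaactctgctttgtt
Bax, chr7:45466849-45467148, minus strand: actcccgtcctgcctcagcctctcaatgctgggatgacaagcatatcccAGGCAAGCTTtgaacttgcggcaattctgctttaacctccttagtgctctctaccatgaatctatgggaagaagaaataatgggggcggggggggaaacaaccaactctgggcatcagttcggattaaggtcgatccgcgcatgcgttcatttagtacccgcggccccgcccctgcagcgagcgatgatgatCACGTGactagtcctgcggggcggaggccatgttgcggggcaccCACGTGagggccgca
Ccng1, chr11:40755237-40755536, minus strand: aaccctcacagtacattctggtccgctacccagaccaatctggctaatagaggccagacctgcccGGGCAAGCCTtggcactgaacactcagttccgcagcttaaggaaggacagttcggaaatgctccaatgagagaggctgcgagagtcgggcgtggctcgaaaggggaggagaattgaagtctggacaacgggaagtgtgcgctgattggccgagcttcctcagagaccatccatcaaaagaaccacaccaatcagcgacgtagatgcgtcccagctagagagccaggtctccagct
Phlda3, chr1:135765835-135766134, plus strand: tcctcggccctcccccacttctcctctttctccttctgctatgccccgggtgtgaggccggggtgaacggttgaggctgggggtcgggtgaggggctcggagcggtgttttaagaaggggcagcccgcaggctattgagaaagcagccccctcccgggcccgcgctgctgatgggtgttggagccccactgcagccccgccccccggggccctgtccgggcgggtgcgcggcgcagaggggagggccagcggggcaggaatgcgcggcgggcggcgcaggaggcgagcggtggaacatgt

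A decamer match was found in Trp53 at positions −75 to −66 from the start, in Mdm2 at −186 to −177, in Bax at −201 to −192 and in Ccng1 at −185 to −176. The Phlda3 promoter and the 3 Bbc3 promoters held none. CACGTG occurred in Trp53 at 10 to 15, in Bax at −9 to −4 and at 35 to 40, and in 1 Bbc3 promoter. The decamer was present in 8.36% of the 32817 promoters in the RefSeq table, CACGTG in 7.15% and TATAAA, which Trp53 alone among these genes held (positions −248 to −243), in 13.6%. Both strands were searched. A match is a description of these letters and not a measured binding site.

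Of the 34 arrays, 3 had another reference, namely 2 TGFα tumors (replicates 2 and 3) and TGFα off 4 weeks replicate 1. There, 7 hepatocyte genes lay at a median percentile of 71.1 to 92.1 in their Cy5 channel, against 99.3 to 99.8 on the other 31 arrays. Those 3 are given apart and enter no test. In the sample channel of the 31 arrays the same hepatocyte genes lay at the 96.4th to 99.9th percentile, so all carried liver RNA, and 43.7% to 71.8% of probes were well above background. The Myc transgene was checked at probe A_52_P108346, where Myc tumors reached a log2 ratio of 4.58 ± 2.01 (SD, n = 7), against −0.26 ± 0.70 in control livers (n = 3). Myc tumor 1 and TGFα tumor 1 were saturated at that probe. At A_52_P278549, where no array was saturated, Myc tumors averaged 3.20 ± 1.52, against 0.28 ± 0.32 in controls. The third Myc probe, A_51_P102096, was not called, at −0.50 ± 0.46 in Myc tumors, against −0.20 ± 0.35 in controls (difference −0.30, SE 0.31, limma adjusted p = 0.487). At A_52_P108346 and A_52_P278549, Myc tumor 5 read 1.04 and 0.10 and TGFα/Myc tumor 3 read 0.83 and 0.07. The array labelled TGFα tumor 1, whose label names no Myc transgene, read 3.55 at A_52_P278549 and 1.37 at A_51_P102096. The group comparisons of the 10 genes below were also computed without Myc tumor 5 and TGFα/Myc tumor 3. The differences within a scan day and the correlations were not. TGFα tumor 1 is given only as a value outside the correlations.

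All levels below are log2 ratios of sample over pooled liver at the brightest probe of the gene, so 0 means the level of the pool, and all differences are between group means of these ratios. A gene is said to have risen or fallen where limma's test, adjusted by Benjamini-Hochberg over all kept probes, gave a p under 0.05. Comparisons that use the same control or tumor samples are not independent of each other.

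**Figure D1:**
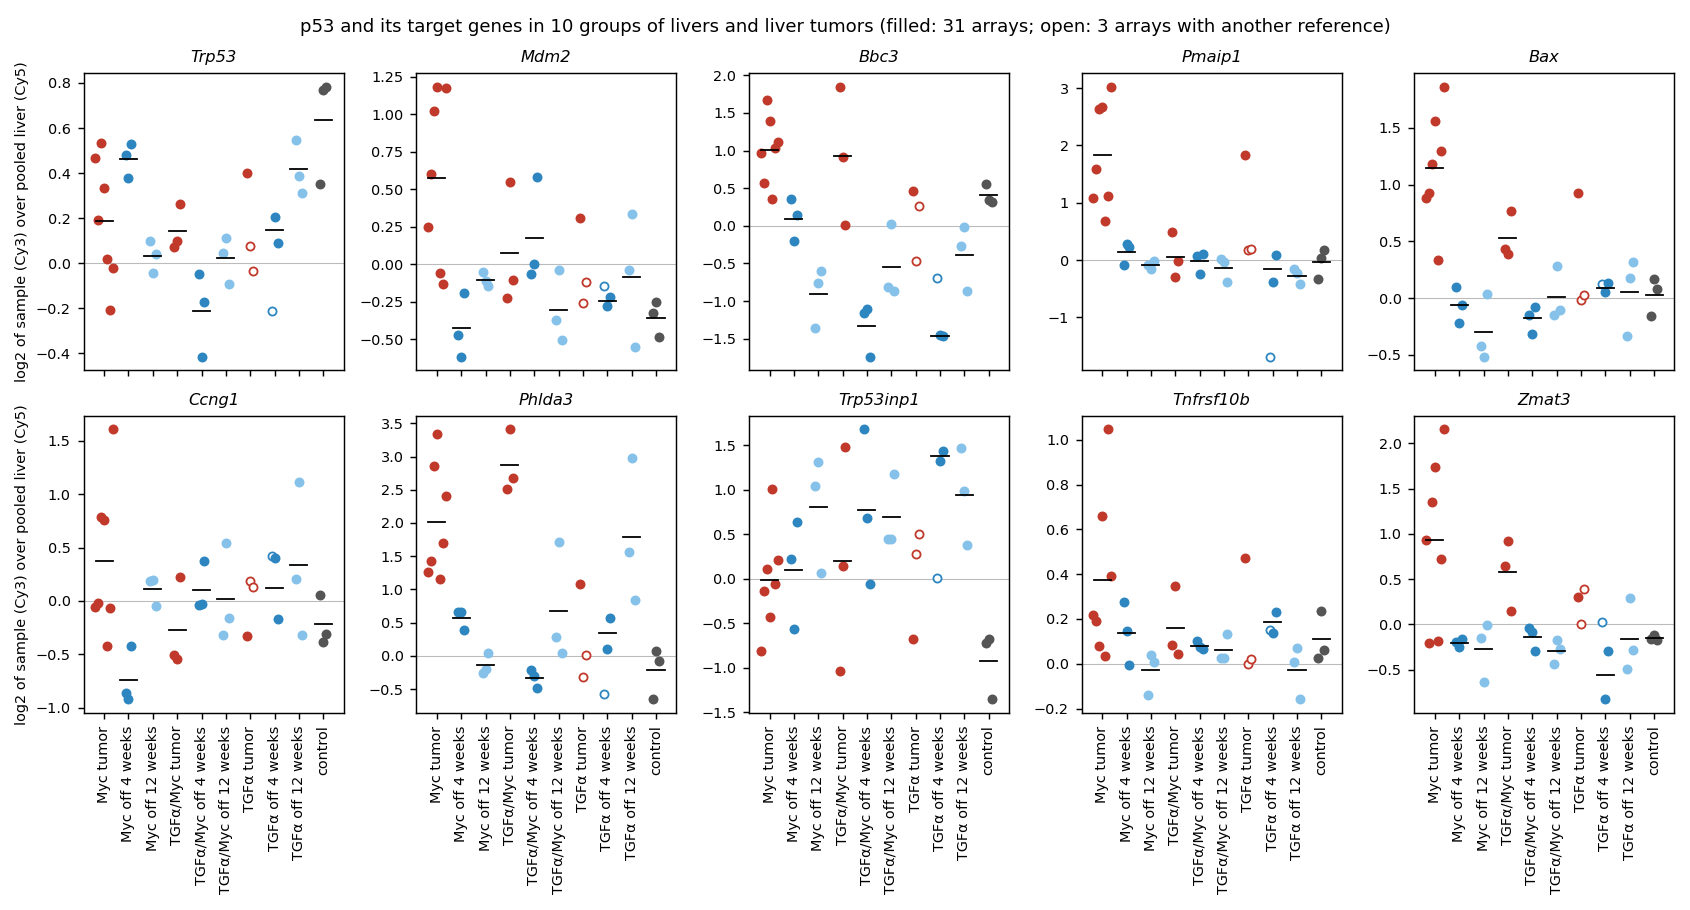
Log2 ratio of sample (Cy3) over pooled liver (Cy5) for the 10 genes at their brightest probes, 1 point per array, in 10 groups, with bars at group means. Filled points are the 31 arrays tested and open points the 3 arrays with another reference. The Myc tumors reach 3.02 for Pmaip1 and 1.86 for Bax, above every control liver.

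In Myc tumors, 5 of the 10 genes rose against control livers (Phlda3, Pmaip1, Bax, Zmat3 and Mdm2) and 1, Trp53 itself, fell. Of all 21966 genes, 35.9% were called in this comparison, 18.8% higher and 17.1% lower. The median difference over the 10 genes was 0.92, against −0.01 over all genes tested. The genes were chosen with earlier results of these data known, so these medians are a description and not a test. Phlda3 was 4.73-fold higher and Pmaip1 3.66-fold higher, and 4 genes (with Bax and Mdm2) lay above every control in every Myc tumor, as 10.8% of all genes did. At their brightest probes Bbc3, Tnfrsf10b, Ccng1 and Trp53inp1 did not pass the test.

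Trp53, on chromosome 11 (GRCm38.p6 69580348 to 69591873), was read by a pair of probes that did not move together. At the brighter one, A_52_P781398, Myc tumors ranged from −0.21 through a median of 0.19 to 0.54, against 0.35, 0.77 and 0.78 in control livers. The groups overlapped, and the mean was lower in the tumors by a log2 difference of −0.45 (SE 0.13, limma adjusted p = 0.00963). Without control 2 or control 3 the call was lost, with limma adjusted p = 0.0645 and 0.0772. At the other probe, A_52_P491849, Myc tumors ranged from 0.06 through 1.01 to 1.21, against 0.49, 0.23 and 0.71 in controls, a difference of 0.34 (SE 0.25, limma adjusted p = 0.308). The sign thus differed between the probes, and across the 31 arrays their Pearson correlation was −0.04. The newer scanner files place them at 69393959 to 69394017 and 69403134 to 69403193 on chromosome 11 of a build they do not name, so neither was assigned to an exon here.

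**Figure D2:**
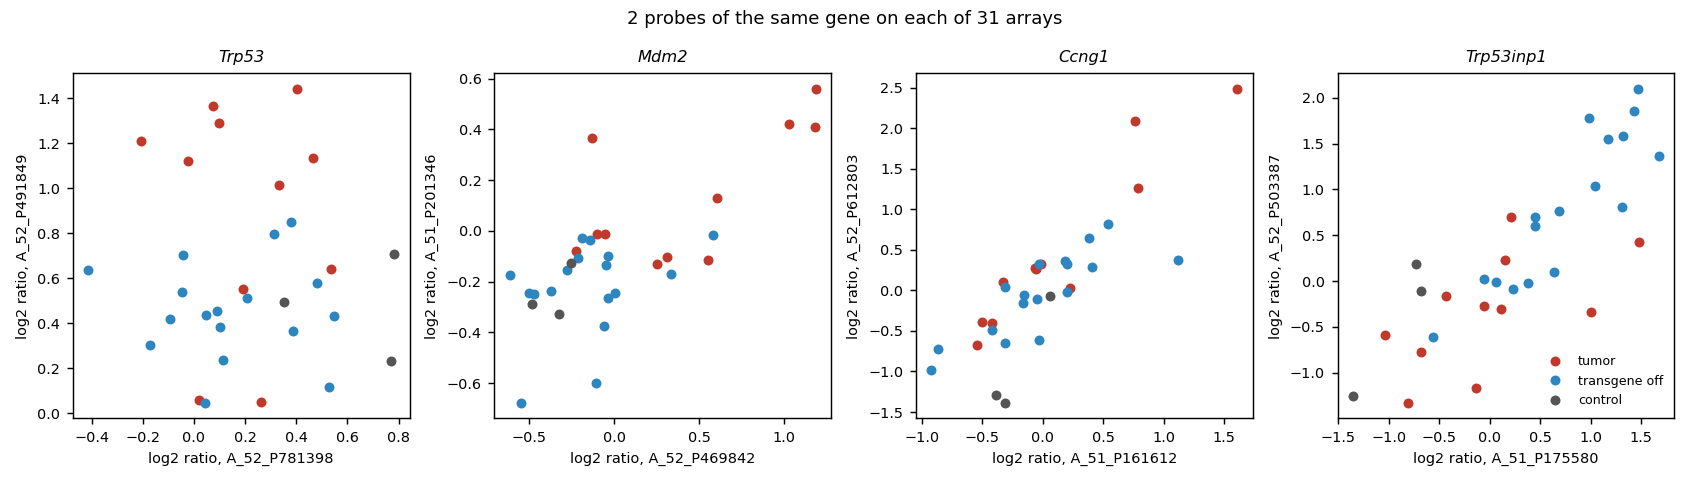
Log2 ratios at the second probe (vertical) against the brightest probe (horizontal) of Trp53, Mdm2, Ccng1 and Trp53inp1, 1 point per array over 31 arrays, coloured as tumor, transgene off or control. Pearson's r was 0.71 for Mdm2, 0.84 for Ccng1 and 0.82 for Trp53inp1, but −0.04 for Trp53.

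Mdm2, on chromosome 10 (117688875 to 117710758), encodes the ligase that degrades p53. Its values in Myc tumors ranged from −0.13 through a median of 0.60 to 1.18, against −0.33, −0.25 and −0.49 in control livers. Every Myc tumor lay above every control. The difference was 0.93 (SE 0.26, 1.91-fold, limma adjusted p = 0.0069), and the second probe gave 0.50 (SE 0.14, 1.41-fold, limma adjusted p = 0.0072). Myc tumors 5 and 6 lay near the controls at −0.06 and −0.13, while tumors 3, 4 and 7 lay above 1. In the sample channel (Cy3) alone the Mdm2 groups overlapped at the brightest probe. There the log2 signal averaged 9.56 in Myc tumors (8.66 to 10.1) and 9.42 in controls (9.27 to 9.62).

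Among the genes that drive apoptosis, Bax and Pmaip1 rose and Bbc3 and Tnfrsf10b did not pass the test. Bax, on chromosome 7 (45461695 to 45466903), encodes the protein that opens pores in the outer mitochondrial membrane. It ranged in Myc tumors from 0.33 through 1.18 to 1.86, against −0.16, 0.16 and 0.08 in controls. The groups did not overlap and the difference was 1.12 (SE 0.22, 2.17-fold, limma adjusted p = 0.000383).

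Pmaip1, on chromosome 18, encodes Noxa, a BH3-only protein that neutralises the survival protein Mcl1. In Myc tumors it ranged from 0.68 through 1.59 to 3.02, against −0.33, 0.03 and 0.18 in controls, again with no overlap. The difference was 1.87 (SE 0.35, 3.66-fold, limma adjusted p = 0.000307). Tumors 3, 4 and 7 were highest, at 2.64, 2.68 and 3.02, and tumor 5 was lowest.

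Bbc3, on chromosome 7 (16308398 to 16318334), encodes Puma, the BH3-only protein that binds all survival members of the BCL2 family. It ranged from 0.36 through 1.03 to 1.67 in Myc tumors, against 0.56, 0.34 and 0.32 in controls, a difference of 0.60 (SE 0.31, limma adjusted p = 0.132). Without Myc tumor 5 and TGFα/Myc tumor 3, whose Myc signals were low at A_52_P108346 and A_52_P278549, it was 0.71 with a limma adjusted p of 0.0319. Tnfrsf10b, which encodes the mouse TRAIL death receptor, was dim: its brightest probe was well above background on 17 of 31 arrays and its other probes on 13 and 4. It ranged from 0.04 through 0.22 to 1.05 in Myc tumors, against 0.03, 0.24 and 0.06 in controls (difference 0.27, SE 0.15, limma adjusted p = 0.169).

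The remaining targets act on growth signals, RNA and the p53 loop. Phlda3, on chromosome 1 (135766085 to 135769134), encodes a small membrane-binding protein that competes with AKT and so holds back survival signalling. It showed the largest fold of the 10 genes, ranging from 1.15 through 1.70 to 3.33 in Myc tumors, against −0.66, 0.08 and −0.08 in controls. The difference was 2.24 (SE 0.44, 4.73-fold, limma adjusted p = 0.000413), with no overlap.

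Zmat3, on chromosome 3 (32334792 to 32365665), encodes a zinc-finger RNA-binding protein that regulates splicing. Myc tumors ranged from −0.20 through 0.94 to 2.15, against −0.16, −0.12 and −0.17 in controls, and the mean was higher by 1.08 (SE 0.35, 2.12-fold, limma adjusted p = 0.0194). Tumors 2 and 5, at −0.20 and −0.18, lay below the controls and the other 5 above 0.7. The call was lost when any 1 control was left out, with limma adjusted p between 0.0525 and 0.0664. In the Cy3 channel alone the log2 signal averaged 8.87 in Myc tumors (8.12 to 10.1) and 8.51 in controls (8.46 to 8.55).

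Ccng1 encodes cyclin G1, which recruits a phosphatase to Mdm2. At its brightest probe, A_51_P161612, it ranged from −0.42 through −0.02 to 1.61 in Myc tumors, against 0.06, −0.39 and −0.31 in controls (difference 0.59, SE 0.34, limma adjusted p = 0.184). At A_52_P612803 the tumors ranged from −0.40 through 0.33 to 2.48, against −0.06, −1.29 and −1.38, and the difference of 1.81 passed (SE 0.46, 3.51-fold, limma adjusted p = 0.00389). At both probes tumors 3, 4 and 7 were the highest. Trp53inp1, a nuclear protein that binds p53 and also acts in autophagy, ranged from −0.81 through −0.06 to 1.01 in Myc tumors, against −0.73, −0.68 and −1.35 in controls (difference 0.90, SE 0.44, limma adjusted p = 0.116). Its second probe gave a difference of −0.02 (SE 0.44, limma adjusted p = 0.978).

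A different scanner read Myc tumors 2 to 7, and no sample of another group was scanned on those days, so scanner and group cannot be told apart for them. Myc tumor 1 and control 2 shared a scan day. Between these 2 arrays the log2 differences were 1.18 for Phlda3, 1.05 for Pmaip1, 1.05 for Zmat3, 0.71 for Bax, 0.50 for Mdm2 and −0.30 for Trp53, each in the direction found over all arrays and smaller in size. With 1 array on each side the day gives no spread of its own, so only the sizes of these differences are given. With scan day as a block, none of the 6 genes was called. Fitted on the Myc tumors and controls alone, 3 of the 6 calls were kept (Phlda3, Pmaip1 and Bax), with limma adjusted p of 0.103 for Trp53, 0.054 for Mdm2 and 0.134 for Zmat3.

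Other tissue features moved with the same groups. All 12 proliferation genes rose in Myc tumors, with a mean log2 ratio of 0.01 to 3.41 over the list, against −0.47 to −0.34 in controls, and tumor 5 was the sample at 0.01. Of 7 hepatocyte genes 4 fell (−2.63 to −0.48 in Myc tumors, −0.13 to 0.24 in controls), and of 4 neutrophil genes 3 rose (0.60 to 3.27 in Myc tumors, 0.33 to 0.61 in controls). Of 6 Kupffer cell and macrophage genes 3 fell and 1 rose (−2.55 to −1.12 in Myc tumors, −1.21 to −0.26 in controls), and of 6 endothelial genes 2 fell (−1.35 to −0.17 in Myc tumors, −0.14 to 0.14 in controls). Their part in the levels of the p53 targets was not tested.

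A wider list of 32 other p53 target genes held 11 that rose and 4 that fell in Myc tumors against controls, where 18.8% of all genes rose and 17.1% fell. The median difference of the list was 0.17, against −0.01 over all genes. This list, too, was chosen with earlier results of these data known. Cdkn1a, which encodes the cell cycle inhibitor p21, averaged 3.09 in Myc tumors and −0.11 in controls, a difference of 3.21 (SE 0.42, limma adjusted p = 6.37e-06). Psrc1, a spindle protein gene, was higher by 4.06, Ddit4, an inhibitor of mTORC1 signalling, by 2.52, and Apaf1, the core of the apoptosome, by 1.38. Dcxr, a sugar reductase gene, fell by 1.36, Epha2 by 1.10, the kinase gene Plk2 by 1.07 and Pidd1, a death domain gene, by 0.46.

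Of 19 measured regulators and relatives of p53, 7 rose and 6 fell, and of 22 BCL2 family and caspase genes 3 rose and 4 fell, where 35.9% of all genes were called in either direction. Rpl5, a ribosomal protein that can bind Mdm2, was higher by 1.71, the checkpoint kinase Chek1 by 1.66, Trp53bp1 by 0.79 and Kat5 by 0.44. The p53 relative Trp73 fell by 1.27, Hipk2, a kinase that phosphorylates p53, by 1.19, Ppp1r13l, an inhibitor of p53, by 1.40, and Usp7, which removes ubiquitin from p53 and Mdm2, by 0.75. In the BCL2 and caspase list Bid was higher by 0.92, Casp2 by 0.85 and Bcl2l11 by 0.66, while among those that fell, Casp9 fell by 0.82, Bcl2l2 by 0.69 and Bik by 0.54.

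In TGFα/Myc tumors, 1 of the 10 genes, Phlda3, rose against control livers, where 1.89% of all genes were called and 1.02% were higher. Its values were 2.52, 3.41 and 2.67 in the tumors, against −0.66, 0.08 and −0.08 in controls. The difference was 3.09 (SE 0.52, 8.49-fold, limma adjusted p = 0.00272). On the 1 scan day that held both groups it was 3.62 (2 tumors and 1 control), and with a lone control only this size is given. Fitted on these 6 arrays alone the limma adjusted p was 0.104, and no kept probe of any gene was called, against 502 in the main fit.

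Pmaip1, among the highest of the genes in Myc tumors, read 0.50, −0.29 and −0.02 in TGFα/Myc tumors, against −0.33, 0.03 and 0.18 in controls (difference 0.10, SE 0.42, limma adjusted p = 0.985). Bax read 0.43, 0.39 and 0.77 in TGFα/Myc tumors, above all controls, but the difference of 0.50 did not pass (SE 0.26, limma adjusted p = 0.429). The differences were 0.72 for Zmat3 (limma adjusted p = 0.507), 0.43 for Mdm2 (0.643) and −0.49 for Trp53 at its brighter probe (0.116). Of the 10 genes 3 had an unadjusted p under 0.05 in this comparison. All tumors lay above all controls for 4 of the 10 genes (Phlda3, Bax, Zmat3 and Mdm2) and below for Trp53 at its brighter probe, as 9.2% and 11.9% of all genes did. At the second Trp53 probe TGFα/Myc tumors averaged 0.90, against 0.48 in controls, and the groups overlapped.

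Set directly against Myc tumors, TGFα/Myc tumors had lower Pmaip1 and Bax, 2 of the 10 genes, where 24.8% of all genes were called and 12.9% were lower. Pmaip1 averaged 0.06 ± 0.40 in TGFα/Myc tumors (SD, n = 3) and 1.83 ± 0.93 in Myc tumors (n = 7), a difference of −1.77 (SE 0.35, 3.41-fold, limma adjusted p = 0.00116), and it lay below every Myc tumor, as 6.39% of all genes did. Bax averaged 0.53 ± 0.21 in TGFα/Myc tumors and 1.15 ± 0.50 in Myc tumors, a difference of −0.62 (SE 0.22, 1.54-fold, limma adjusted p = 0.0406). The Bax call was lost without any one of Myc tumors 3, 4, 6 and 7 or TGFα/Myc tumors 1 and 2, with limma adjusted p of 0.0547 to 0.183. Fitted with scan day as a block the differences were −0.62 for Pmaip1 and −0.15 for Bax, and neither was called. That fit called 648 of the 31544 probes, against 7542 in the main fit.

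Phlda3 averaged 2.87 ± 0.48 in TGFα/Myc tumors and 2.02 ± 0.85 in Myc tumors, and Mdm2 averaged 0.07 ± 0.42 in TGFα/Myc tumors and 0.58 ± 0.57 in Myc tumors. Neither difference passed, at 0.84 (SE 0.44, limma adjusted p = 0.168) for Phlda3 and −0.51 (SE 0.26, limma adjusted p = 0.16) for Mdm2. In the wider list of 32 p53 targets 1 rose and 6 fell in TGFα/Myc tumors against Myc tumors, where 12.9% of all genes were lower. Cdkn1a averaged 1.30 in TGFα/Myc tumors and 3.09 in Myc tumors (difference −1.79, SE 0.42, limma adjusted p = 0.00396). Ddit4 and Psrc1 rose in TGFα/Myc tumors against controls, by 2.18 and 3.73, with Gdf15 at 1.11 as the third of the list, and Dcxr fell by 1.19.

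Between these tumor types 5 of the 12 proliferation genes were lower in TGFα/Myc tumors (list means of 0.77 to 2.43 in TGFα/Myc tumors, 0.01 to 3.41 in Myc tumors). The neutrophil list, of which 3 of 4 genes were lower, averaged 0.08 to 0.54 in TGFα/Myc tumors and 0.60 to 3.27 in Myc tumors. The hepatocyte list, of which 6 of 7 genes were higher, averaged −0.26 to 0.75 in TGFα/Myc tumors and −2.63 to −0.48 in Myc tumors. The part of these cell contents in the difference in Pmaip1 and Bax was not tested.

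**Figure D3:**
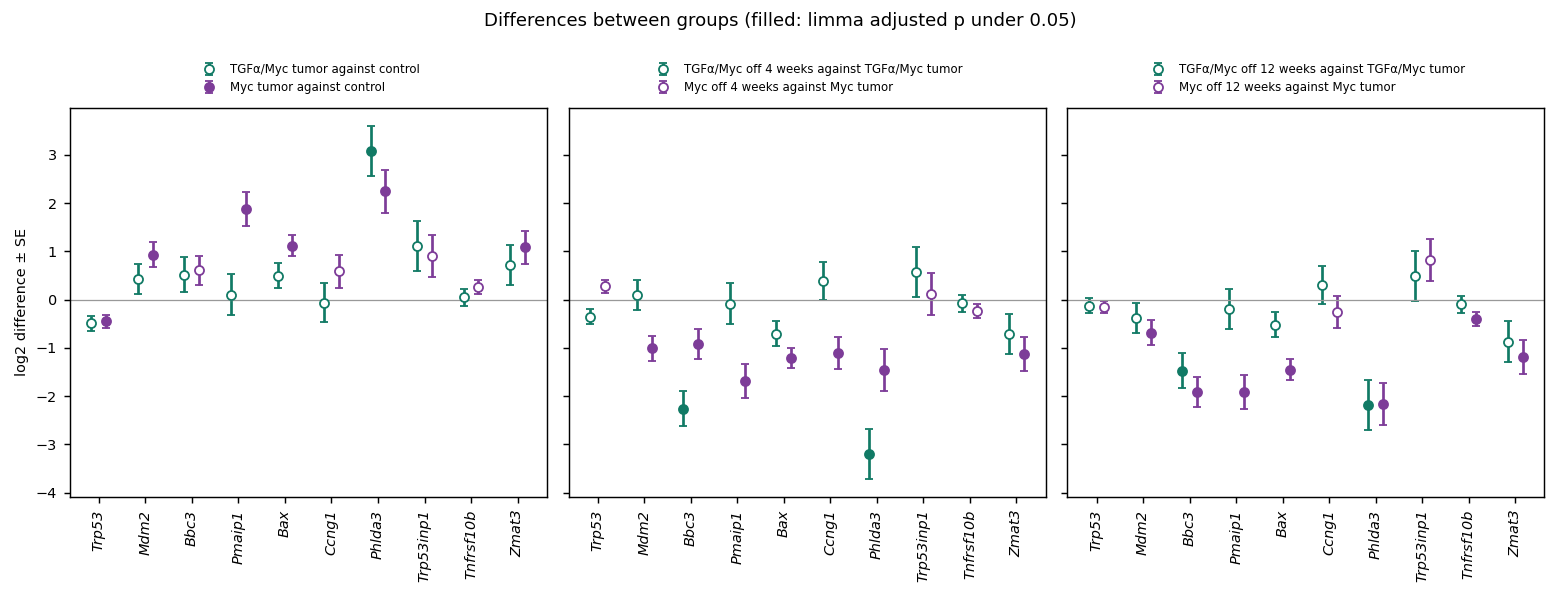
Log2 differences between group means ± SE for the 10 genes, TGFα/Myc in green and Myc in purple, for tumor against control (left), 4 weeks off against tumor (middle) and 12 weeks off against tumor (right). Filled points passed limma's test. Phlda3 is filled in all 6 comparisons, while Pmaip1 and Bax are filled in the 3 Myc comparisons.

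With Myc turned off for 4 weeks, 7 of the 10 genes were lower than in Myc tumors and none was higher among those that passed, where 31.6% of all genes were called and 17.4% were lower. Pmaip1 fell to −0.08, 0.28 and 0.24 in the off livers, against 0.68 to 3.02 in the tumors, a difference of −1.69 (SE 0.35, 3.22-fold, limma adjusted p = 0.000974). Bax fell to 0.09, −0.22 and −0.07, against 0.33 to 1.86 in the tumors (−1.21, SE 0.22, 2.31-fold, limma adjusted p = 0.000232). Neither gene's groups overlapped. Ccng1, not called between tumors and controls at its brightest probe, read −0.86, −0.92 and −0.42 in the off livers, against −0.42 to 1.61 in tumors (−1.11, SE 0.34, limma adjusted p = 0.0145). In all, 6 of the 10 genes lay wholly below the tumors, as 11.1% of all genes did.

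The other calls were Phlda3 at −1.45 (SE 0.44, limma adjusted p = 0.0144), Zmat3 at −1.13 (SE 0.35, limma adjusted p = 0.0168), Mdm2 at −1.01 (SE 0.26, limma adjusted p = 0.00467) and Bbc3 at −0.92 (SE 0.31, limma adjusted p = 0.0264). Calls for Ccng1, Zmat3, Bbc3 and Phlda3 were each lost when 1 of the 3 off livers was left out, with limma adjusted p of 0.0578 to 0.141. All 3 off livers and Myc tumor 1 shared a scan day. Within it the differences were −0.94 for Bax, −1.14 for Zmat3, −0.94 for Pmaip1 and −0.87 for Bbc3. They were −0.69 for Phlda3 and −0.68 for both Mdm2 and Ccng1. With 1 tumor on that day, only the sizes of these differences are given.

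After 12 weeks off, 7 of the 10 genes were again lower than in Myc tumors, where 31.2% of all genes were called and 16.3% were lower. Bbc3 fell to −1.35, −0.76 and −0.60, against 0.36 to 1.67 in the tumors, a difference of −1.92 (SE 0.31, 3.78-fold, limma adjusted p = 7e-05). Bax was lower by a log2 difference of −1.45 (SE 0.22, 2.73-fold, limma adjusted p = 3.52e-05), Phlda3 of −2.16 (SE 0.44, limma adjusted p = 0.000695), Pmaip1 of −1.92 (SE 0.35, limma adjusted p = 0.000297) and Zmat3 of −1.20 (SE 0.35, limma adjusted p = 0.0121). For Bbc3, Bax, Phlda3 and Pmaip1 the off livers lay wholly below the tumors, as 8.6% of all genes did.

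Mdm2, at −0.68 (SE 0.26, limma adjusted p = 0.0494), and Tnfrsf10b were at the edge of the threshold. Tnfrsf10b was not well above background in any of the 3 off livers and was so in only 5 of the 7 tumors. The size of its difference is therefore uncertain. At its brightest probe the fitted difference was −0.40 (limma adjusted p = 0.0407). The other probes gave −0.29 (limma adjusted p = 0.116) and 0.10 (limma adjusted p = 0.363). The sign turned with the authors' deposited table of log2 values, to 3.00 (limma adjusted p = 0.0172), and with scan day as a block, to 0.0299 (limma adjusted p = 0.977). The call was lost without Myc tumor 4, without Myc tumor 7 or without any 1 off liver. No Myc tumor was scanned on a day with these off livers, and with scan day as a block none of the 7 was called (Bax −1.07, limma adjusted p = 0.315). That fit called 367 of the 31544 probes, against 9277 in the main fit.

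After 4 weeks with both transgenes off, 2 of the 10 genes, Phlda3 and Bbc3, were lower than in TGFα/Myc tumors, where 7.72% of all genes were called and 3.95% were lower. Phlda3 fell to −0.22, −0.31 and −0.48 in the off livers, against 2.52, 3.41 and 2.67 in the tumors, a difference of −3.20 (SE 0.52, 9.21-fold, limma adjusted p = 0.000739). Bbc3 fell to −1.16, −1.10 and −1.74, against 1.85, 0.91 and 0.01 in the tumors (−2.26, SE 0.36, 4.78-fold, limma adjusted p = 0.000713). These 2, Bax, Zmat3 and, at its brighter probe, Trp53 lay wholly below the tumors, as 12.3% of all genes did. The second Trp53 probe averaged 0.49 in the off livers and 0.90 in the tumors, and the groups overlapped. Fitted on these arrays alone, Bbc3 was no longer called (limma adjusted p = 0.144), where 20 probes were, against 2139 in the main fit. These off livers shared no scan day with the tumors or the controls, so scan day and group cannot be told apart here.

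After 12 weeks the same 2 genes were called, where 4.29% of all genes were called and 2.26% were lower. Phlda3 read 0.28, 1.72 and 0.04 in the off livers (−2.19, SE 0.52, 4.56-fold, limma adjusted p = 0.0179), and the liver at 1.72 stood clear of the others. Bbc3 read −0.82, 0.03 and −0.87 (−1.48, SE 0.36, 2.78-fold, limma adjusted p = 0.0221), so off liver 2 was highest for both genes. Phlda3, Bax and Zmat3 lay wholly below the tumors, as 13.2% of all genes did. Both calls were lost without TGFα/Myc tumor 1, without tumor 2, or without off liver 1 or 3, with limma adjusted p of 0.0543 to 0.224. With scan day as a block the differences were −2.38 for Phlda3 and −1.72 for Bbc3, without a call. All of these off livers shared 1 slide and 1 scan day. With slide as a random block neither gene was called, where 135 of the 31544 probes were, against 1125 in the main fit.

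The wider list of 32 p53 targets held 3 genes that rose and 10 that fell after 4 weeks of Myc off against Myc tumors, and 2 that rose and 10 that fell after 12 weeks, where 17.4% and 16.3% of all genes were lower. Cdkn1a was lower by a log2 difference of −2.82 at 4 weeks (SE 0.42, limma adjusted p = 3.95e-05) and −2.74 at 12 weeks (SE 0.42, limma adjusted p = 4.53e-05). In TGFα/Myc mice 4 weeks off, 1 gene of the list rose and 4 fell (3.95% of all genes were lower), among them Ddit4 at −2.88 and Psrc1 at −3.64. Cdkn1a averaged 1.16 in these off livers and 1.30 in their tumors (difference −0.15, SE 0.50, limma adjusted p = 0.96).

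Whether the change on turning off the transgenes differed between TGFα/Myc and Myc mice was tested as a difference of differences. At 4 weeks 1 of the 10 genes was called, where 14.2% of all genes were and 6.92% with a lower response. At the brighter Trp53 probe, TGFα/Myc livers off 4 weeks read −0.05, −0.41 and −0.17, against 0.07, 0.10 and 0.26 in TGFα/Myc tumors. Myc livers off 4 weeks read 0.48, 0.38 and 0.53, against −0.21 to 0.54 in Myc tumors. The response was lower in TGFα/Myc mice by −0.63 (SE 0.20, limma adjusted p = 0.0388), and at the second probe the difference was −0.11 (SE 0.38, limma adjusted p = 0.894).

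For Pmaip1 the response at 4 weeks differed by 1.60 (limma adjusted p = 0.0537), for Ccng1 by 1.49 (0.0581), for Bbc3 by −1.34 (0.0626), for Mdm2 by 1.11 (0.0672) and for Phlda3 by −1.75 (0.0885), and none passed. Without Myc tumor 5 and TGFα/Myc tumor 3, the call for Trp53 was lost (limma adjusted p = 0.0897) and those for Pmaip1, Ccng1 and Bbc3 were made, at 1.75, 1.87 and −1.69 (limma adjusted p = 0.0252, 0.0152 and 0.00749). At 12 weeks none of the 10 genes was called by limma, where 2.83% of all genes were, and 2 had an unadjusted p under 0.05. Those were Pmaip1 at 1.72 (limma adjusted p = 0.0861) and Bax at 0.93 (limma adjusted p = 0.131).

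Against control livers, the off livers differed in few of the 10 genes. After 4 weeks of Myc off none was called by limma and none had an unadjusted p under 0.05, where 0.00455% of all genes were called. After 12 weeks of Myc off none was called (0.15% of all genes), with 3 at an unadjusted p under 0.05. After 12 weeks off in TGFα/Myc mice and in TGFα mice none was called (0.0182% of all genes in each), with 3 at an unadjusted p under 0.05 in each.

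After 4 weeks off in TGFα/Myc mice 2 genes fell below control livers, where 5.69% of all genes were called and 2.61% were lower. Bbc3 read −1.16, −1.10 and −1.74 in these off livers, against 0.56, 0.34 and 0.32 in controls (−1.74, SE 0.36, 3.34-fold, limma adjusted p = 0.00715). Trp53 read −0.05, −0.41 and −0.17 at its brighter probe, against 0.35, 0.77 and 0.78 in controls (−0.85, SE 0.15, 1.8-fold, limma adjusted p = 0.00337), while its second probe gave 0.01 (SE 0.29, limma adjusted p = 0.994). With Cy3 alone on 31 arrays the sign at the brighter Trp53 probe turned, to 0.28 (limma adjusted p = 0.813). Fitted on the TGFα/Myc off 4 weeks and control arrays alone, no kept probe of any gene was called, against 1805 in the main fit. In TGFα mice 4 weeks off Bbc3 was −1.46 on both arrays that could be used, again below every control (−1.87, SE 0.41, 3.65-fold, limma adjusted p = 0.0346), where 0.701% of all genes were called and 0.496% were lower. That call was lost when any 1 of the 5 arrays was left out, with limma adjusted p of 0.0508 to 0.48. The TGFα livers and 2 of the TGFα/Myc livers off 4 weeks shared a scan day and a slide that held no control.

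In 5 of the 6 off groups, all but Myc off 4 weeks, every Bbc3 value lay below every control, and the same held for Trp53 at its brighter probe in 4 of the 6. At the second Trp53 probe every off group overlapped the controls, with group means of 0.36 to 0.53, against 0.48 in controls. The share of all genes wholly below controls was 9.02% in Myc livers off 4 weeks, 11% after 12 weeks, 13.3% and 14.4% in TGFα/Myc livers, and 19.7% and 8.49% in TGFα livers. Bbc3 in Myc livers off 12 weeks did not pass against controls (−1.31, SE 0.36, limma adjusted p = 0.128), with values of −1.35, −0.76 and −0.60. Over the 10 groups its means ran from 1.01 in Myc tumors and 0.92 in TGFα/Myc tumors through 0.41 in controls to −1.33 in TGFα/Myc livers and −1.46 in TGFα livers off 4 weeks.

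Trp53inp1 ran the other way at its brightest probe. The off livers read from −0.56, in a Myc liver off 4 weeks, to 1.68, in a TGFα/Myc liver off 4 weeks, all above the controls at −0.73, −0.68 and −1.35. The differences from controls were 2.29 in TGFα livers off 4 weeks (SE 0.58, limma adjusted p = 0.0661), 1.86 in TGFα livers off 12 weeks (0.208), 1.72 in Myc livers off 12 weeks (0.166), 1.69 in TGFα/Myc livers off 4 weeks (0.0571), 1.61 in TGFα/Myc livers off 12 weeks (0.286) and 1.02 in Myc livers off 4 weeks. Genes lying wholly above controls made up 7.53% of all in Myc livers off 4 weeks, 8.68% after 12 weeks, 11.8% and 10.7% in TGFα/Myc livers, and 16.3% and 7.43% in TGFα livers. None of the Trp53inp1 differences passed, and the second probe, whose controls read 0.19, −0.11 and −1.25, overlapped them in part.

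Phlda3 in TGFα livers off 12 weeks read 1.56, 2.97 and 0.84, against −0.66, 0.08 and −0.08 in controls, a difference of 2.01 with no overlap (SE 0.52, limma adjusted p = 0.163). All of these off livers shared 1 slide and 1 scan day. The Phlda3 mean of 1.79 ± 1.09 there was the third highest of the 10 groups, after 2.87 in TGFα/Myc tumors and 2.02 in Myc tumors. The ranges of these 3 groups overlapped.

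The array labelled TGFα tumor 1 read 1.84 for Pmaip1, 1.08 for Phlda3, 0.92 for Bax and 0.46 for Bbc3, within the range of the Myc tumors for Pmaip1, Bax and Bbc3, with list means of 3.08 for proliferation and 4.08 for neutrophil genes. TGFα tumors 2 and 3, set against the other reference, read 0.17 and 0.19 for Pmaip1, −0.32 and 0.02 for Phlda3 and −0.02 and 0.03 for Bax. The references differ, so no difference between the 3 arrays was computed.

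Across the 31 arrays, which share the reference RNA, Pearson's r between pairs of the 5 targets that rose in Myc tumors ran from 0.51 (Phlda3 and Pmaip1) and 0.59 (Mdm2 and Phlda3) through 0.69 (Bax and Mdm2) to 0.84 (Bax and Zmat3) and 0.86 (Bax and Pmaip1). These genes are named here because they rose in 1 group of the same arrays, which by itself gives positive correlations. The lowest of all member pairs was −0.60, between Bbc3 and Trp53inp1, and Trp53 at its brighter probe correlated with no member above 0.36. Among all other genes the closest to Mdm2 were Insl6 (0.87), Plgrkt (0.84), Coprs (0.83), Tfrc (0.82) and Mllt11 (0.82). The closest to Ccng1 were Cndp2 (0.78), Atg13 (0.76), Ankrd13c (0.76), Atpsckmt (0.74) and Wsb2 (0.74). The closest to Trp53 at its brighter probe, whose profile the second probe did not share, were the entries TC1599525 (0.90), Sptbn4 (0.86), Olfr279 (0.85), ENSMUST00000082184 (0.83) and Polr2a (0.81). These are descriptions over samples that fall into groups, without a test.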

How the data were processed

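RNA of each liver or tumor (Cy3) was hybridised with pooled liver RNA (Cy5) on 2-color Agilent arrays. The authors deposited scanner intensity values per spot with, per the file headers, a log10 ratio of Cy5 over Cy3. They also deposited a table of log2 values whose scaling and centring the labels do not state. Its columns, with medians of −0.374 to 0.445, ran with log2 Cy5 over Cy3 of the scanner signals (Spearman's r 0.761 to 0.968), and it served as an alternative. The submitters' processing notes name limma. Aligners and builds are not given in the sources used here.

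Here, mean signals were background-corrected by normexp (offset 50) and loess-normalized within each array with limma 3.58.1 in R 4.3.3. Ratios were turned to log2 Cy3 over Cy5, the direction of minus the deposited log10 ratio. Outlier spots were left out and spots of a probe averaged. Probes had to be well above background in the Cy3 channel of 3 or more of the 31 arrays. limma fitted 1 mean per group to the 31 arrays, with 21 residual degrees of freedom, and p-values were adjusted by Benjamini-Hochberg over 31544 probes. A gene was read at its brightest kept probe. Precision is limited by how many arrays a group has. In all, 34 arrays were spread over 16 slides and 12 scan days. Dyes were not swapped, so dye bias of a probe is shared by all groups.

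The genes and lists were chosen with earlier results of these data known, and named genes follow 1 rule: every member, every Myc probe, up to 4 called genes per list and direction, and the 5 genes closest to Mdm2, Ccng1 and Trp53. Some genes that this rule names are not reported here. Replicate numbers were not taken to pair the samples, although same-numbered arrays were somewhat more alike. Of 100 same-numbered pairs from different groups (mean correlation 0.0363) 34 exceeded 0.1. Of 292 pairs with other numbers (mean −0.0124) 54 did. The group fit and its calls were tested on simulated ratios with independent noise. That simulation did not cover background correction, normalization, the probe filter or the correlation within slides. Alternatives changed the background correction, normalization, filter, probe choice, blocks, weights and arrays.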

Additional observations from a re-analysis of the deposited data

Results flagged for a closer look

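The change in Trp53 after 4 weeks with the transgenes off differed between TGFα/Myc and Myc mice by −0.63 on the log2 scale at the brighter probe (SE 0.20, limma adjusted p = 0.0388). This is a test of the difference itself. It called 1 of the 10 genes, where 14.2% of all genes were called. The off livers lay below their tumors in TGFα/Myc mice (means of −0.21 in off livers and 0.15 in tumors) and above their tumors in Myc mice (means of 0.46 in off livers and 0.19 in tumors). In the Cy3 channel alone, the log2 signal averaged 9.73 in off livers and 9.71 in tumors of TGFα/Myc mice. In Myc mice it averaged 9.99 in off livers and 9.17 in tumors. The TGFα/Myc off livers shared no scan day with their tumors. The call was lost without any one of Myc tumor 7, TGFα/Myc tumor 2 or 3, TGFα/Myc off liver 2 or 3, or any Myc off liver, with limma adjusted p of 0.052 to 0.116. At the second Trp53 probe the difference was −0.11 (limma adjusted p = 0.894). The spread among the 7 Myc tumors was checked for a sample far from the others at each of the 16 kept probes, and no probe had one by Dixon's test.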

How the results depend on the processing

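Over all alternatives, 7520 values of the 10 genes kept their direction and side of the threshold, 178 lost a call, 102 gained one and 7 reversed. Reversals were Tnfrsf10b in TGFα/Myc against Myc tumors with the deposited ratio (1.17, limma adjusted p = 0.0404), Tnfrsf10b in Myc off 12 weeks against tumors with the deposited table (3.00, limma adjusted p = 0.0172) and with scan day as a block (0.0299), Mdm2 in that comparison with Cy3 alone (0.23 on 31 arrays and 0.23 on 34), and Trp53 in TGFα/Myc off 4 weeks against controls with Cy3 alone (0.28 and 0.28). The cause of these reversals was not tested.

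Counts of the 10 genes called changed as follows. For Myc tumor against control (6), 3 were called with only the groups compared and 0 with a scan day block. For TGFα/Myc tumor against control (1), the count was 0 with only the groups compared, where no kept probe of any gene was called. It was 2 with the deposited ratio, array weights or the replicate block. For TGFα/Myc against Myc tumor (2), it was 0 with only the groups compared, scan day as a block or Cy3 alone on 34 arrays, and 1 with Cy3 alone on 31 arrays, the deposited table, no filter, all 34 arrays, Myc tumors 3 and 4 averaged, slide as a random block or a 2-fold minimum. For Myc off 4 weeks against tumor (7), it was 1 with a scan day block and 4 with Cy3 alone on 34 arrays. For Myc off 12 weeks against tumor (7), it was 4 with only the groups compared and 0 with scan day as a block. For TGFα/Myc off 4 weeks against tumor (2), it was 1 with only the groups compared and 4 with the deposited ratio, array weights or no background subtraction. For TGFα/Myc off 12 weeks against tumor (2), it was 0 with only the groups compared, scan day or slide as a block, and 4 with Cy3 alone on 31 arrays or no background subtraction.

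Against controls, TGFα/Myc off 4 weeks (2) had 0 with only the groups compared or Cy3 alone on 34 arrays and 1 with the deposited ratio, Cy3 alone on 31 arrays, a 2-fold minimum or the mean of probes. With only the groups compared, no kept probe of any gene was called there. TGFα off 4 weeks (1) had 2 with only the groups compared or without Myc tumor 5 and TGFα/Myc tumor 3, 3 with array weights, and 0 with Cy3 alone on 31 arrays or slide as a block. Myc off 12 weeks (0) had 3, TGFα/Myc off 12 weeks (0) had 2 and TGFα off 12 weeks (0) had 2 with array weights, and the last had 1 with the deposited table. For the difference in response at 4 weeks (1), the count was 0 with only the groups compared, Cy3 alone on 31 or 34 arrays, all 34 arrays, slide as a block or a 2-fold minimum, 2 with the stricter filter on dim probes, 3 with the deposited table, Myc tumors 3 and 4 averaged or Myc tumor 5 and TGFα/Myc tumor 3 left out, 4 with the deposited ratio, array weights or the replicate block, and 5 with no background subtraction. At 12 weeks (0) it was 1 with the deposited ratio and 2 with array weights, the replicate block or those 2 tumors left out. The replicate block, whose numbers were not taken to pair the samples, changed no other count by over 1.5 times. Scan day as a block could not be fitted for TGFα/Myc or TGFα off 4 weeks.

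With each array left out in turn, in the order of the report, the counts ranged from 4 to 6 and 1 to 1 for Myc and TGFα/Myc tumors against controls, 1 to 2 between them, 4 to 8 and 4 to 7 for Myc off 4 and 12 weeks against tumors, 2 to 3 and 0 to 2 for TGFα/Myc, and 0 to 0, 0 to 1, 2 to 3, 0 to 0, 0 to 2 and 0 to 0 for Myc, TGFα/Myc and TGFα off 4 and 12 weeks against controls, and 0 to 4 and 0 to 2 for the responses. Over all probes, 11168 were called for Myc tumor against control, between 4345 with a 2-fold minimum and 12539 without Myc tumor 5 and TGFα/Myc tumor 3. In that comparison scan day as a block called 5626 of the 31544 probes, and none of the brightest probes of the 10 genes was among them.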

Other observations

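The levels of the 10 genes also varied within the Myc tumors. Tumors 3, 4 and 7 were the highest 3 of 7 for Pmaip1, Mdm2, Ccng1, Zmat3 and Phlda3, and tumor 7 was highest for Bax, Pmaip1, Ccng1 and Zmat3. Tumor 5 was lowest for Bax, Pmaip1, Phlda3, Bbc3 and Ccng1 and highest for Trp53inp1, at 1.01. Its proliferation list mean was 0.01, against 2.58 to 3.41 in the other Myc tumors, and its Myc log2 ratio was the lowest of the 7 at A_52_P108346 and A_52_P278549 and the highest at A_51_P102096. The file names of tumors 3 and 4 share a number, so these may not be independent samples.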
